A study of Homo sapiens with 6 samples.

Results

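The 10 glycolytic enzyme genes HK2, PFKP, ALDOA, TPI1, GAPDH, PGK1, PGAM1, ENO1, PKM and LDHA were taken by gene symbol from the 60605 genes of the deposited expression table, and each symbol was found in 1 gene. MDA-MB-231, an established human line of triple-negative breast cancer, was profiled by poly(A) RNA-seq in 3 libraries with a control short hairpin RNA (shControl) and in 3 libraries with a hairpin against PUS1 (shPUS1), the gene of a tRNA and mRNA pseudouridine synthase. Per the study's methods, the hairpins were carried by a lentiviral pLKO.1 vector with puromycin selection, and all libraries share the cell line, this kind of vector and the culture in serum. The deposited columns name the knockdown with the number 2, and the labels do not say which of the study's hairpins that is or whether the replicates come from separate selections, so the p-values measure the spread between these libraries, which may be technical. The questions were how much RNA of each enzyme these cells held and whether it differed between shPUS1 and shControl.

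Glycolysis splits glucose into pyruvate in the cytosol. In an investment phase, hexokinase and phosphofructokinase spend ATP and aldolase cuts the sugar into trioses, and in a payoff phase the trioses are oxidised and ATP is regained. Lactate dehydrogenase then turns pyruvate into lactate and restores NAD+ for the GAPDH step. Many tumour cells run this route to lactate even with oxygen present, and the transcription factors HIF-1 and MYC are known activators of many of its genes.

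With PUS1 knocked down, 1 of the 10 enzymes passed the test: GAPDH mRNA fell by 0.71 on the log2 scale (SE 0.14, n = 3 libraries per group, edgeR adjusted p = 0.0462). Over all genes tested, 0.841% were called lower in the same way, and the GAPDH call was lost when any of 4 of the 6 libraries was left out (adjusted p from 0.0905 to 0.255). In each of those 4 fits, 0 of all genes tested were called lower. ALDOA, TPI1, PGK1, ENO1 and LDHA had log2 fold changes between -0.71 and -0.47 with adjusted p between 0.0575 and 0.0910, and their 3 shPUS1 values all lay under their 3 shControl values. With GAPDH, 6 of the 10 enzymes were lower without overlap, where 17.3% of all genes tested were. HK2, PFKP, PGAM1 and PKM, which serve the hexokinase, phosphofructokinase, mutase and pyruvate kinase steps, overlapped between the groups.

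The 250 bases before the listed start are shown for PGK1 and GAPDH, the enzymes with the lowest fold changes, and for PKM, a gene with a single listed start and a fold change near 0. Sequences are from RefSeq on GRCh38.p14 and read 5′ to 3′ toward the gene. Capitals mark ACGTG or GCGTG on either strand, the core of the HIF-1 site, and CACGTG, the E-box bound by MYC and other factors, contains ACGTG on both strands.
PGK1 promoter, chrX:78103998-78104247, plus strand: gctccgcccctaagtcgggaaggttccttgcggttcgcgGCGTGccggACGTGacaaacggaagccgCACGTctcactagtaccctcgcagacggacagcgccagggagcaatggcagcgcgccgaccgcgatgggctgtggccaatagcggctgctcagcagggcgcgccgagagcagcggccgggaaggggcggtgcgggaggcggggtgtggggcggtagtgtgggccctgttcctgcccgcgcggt
GAPDH promoter, chr12:6535014-6535263, plus strand: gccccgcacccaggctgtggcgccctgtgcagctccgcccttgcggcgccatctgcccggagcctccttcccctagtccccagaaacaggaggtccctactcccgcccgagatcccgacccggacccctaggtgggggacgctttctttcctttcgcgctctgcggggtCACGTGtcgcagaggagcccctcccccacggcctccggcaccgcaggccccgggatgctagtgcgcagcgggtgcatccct
PKM promoter, chr15:72231191-72231440, minus strand: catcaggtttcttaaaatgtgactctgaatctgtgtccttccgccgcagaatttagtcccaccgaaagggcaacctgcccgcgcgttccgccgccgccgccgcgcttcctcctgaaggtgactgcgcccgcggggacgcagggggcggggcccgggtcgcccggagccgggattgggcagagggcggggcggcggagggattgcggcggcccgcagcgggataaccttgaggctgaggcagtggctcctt
In PGK1 the marked words begin 211, 202 and 183 bases before the listed start, the last of them as CACGT, which is ACGTG on the other strand. In GAPDH the single CACGTG begins 81 bases before the start. For PGK1, GAPDH and PKM alike, the deposited gene interval opens further upstream than the start that RefSeq lists. None of the searched words is in the PKM window other than GGGCGG, the GC box bound by SP1, which it holds 3 times.

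RefSeq lists 18 starts for the 10 members, and windows of one gene can overlap. ACGTG was found on either strand in 10 of these 18 windows, against 18.5% of 35116 promoter windows of all genes. GCGTG was found in 7 of 18 windows against 32.2%, and either word in 13 of 18 windows against 43.2%. CACGTG was found in 4 of 18 windows against 6.34%, in HK2, ALDOA, GAPDH and LDHA. GGGCGG was found in 13 of 18 windows against 42.6%, and all 10 members have it before at least 1 start. HK2 and PFKP hold ACGTG as well, although their groups overlapped, and ENO1 holds only GCGTG. PGAM1 and PKM hold neither word in the windows searched. Both of these windows lie inside the deposited gene intervals, and the bases before the outer starts of those intervals were not searched. A match is a string of letters in the window and not a measured binding site. The windows of all genes were not matched to those of the members in GC content or expression, and no share per gene was counted over all genes. The shares therefore describe the windows and carry no test.

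The libraries held from 14241505 to 19625998 estimated counts, enough to test 14748 genes. PUS1 (ENSG00000177192) had 14.5, 27.5 and 12.1 CPM (counts scaled to library size with TMM factors) in shControl replicates 1, 2 and 3 and 6.57, 5.47 and 5.37 in shPUS1 replicates 1, 2 and 3. It fell by 1.64 on the log2 scale (SE 0.32, edgeR adjusted p = 0.0462), and by 1.20 with shControl replicate 2 left out (adjusted p = 0.0031). Leaving out shControl replicate 1 or any 1 shPUS1 library ended the call (adjusted p from 0.0905 to 0.253), and none of the genes tested was called lower in those fits. Replicate 2 of shControl stood apart from the other controls: its log2 CPM had a Pearson r across genes of 0.951 and 0.952 with replicates 1 and 3, which had 0.981 with each other, and the shPUS1 libraries had 0.987 to 0.991 among themselves. The fold change of each named gene is therefore also given without it. The line's markers VIM (286 to 498 FPKM) and CD44 (74.6 to 99.6) were present in all libraries. ESR1 and PGR stayed at or under 0.04 FPKM, CDH1 at or under 0.18 and the leukocyte marker PTPRC at or under 0.02. ERBB2 (4.93 to 6.91 FPKM), EPCAM (2.21 to 3.12) and the fibroblast marker COL1A1 (0.73 to 3.53) were low but detected. Mitochondrially encoded RNA made up 4.31 to 5.09% of counts, with overlap between groups, while ribosomal protein mRNAs made up 3.96 to 4.66% in shControl and 3.16 to 3.61% in shPUS1. Their part in the enzyme results was not tested, and in bulk RNA fewer expressing cells and less RNA per cell cannot be told apart.

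**Figure D1:**
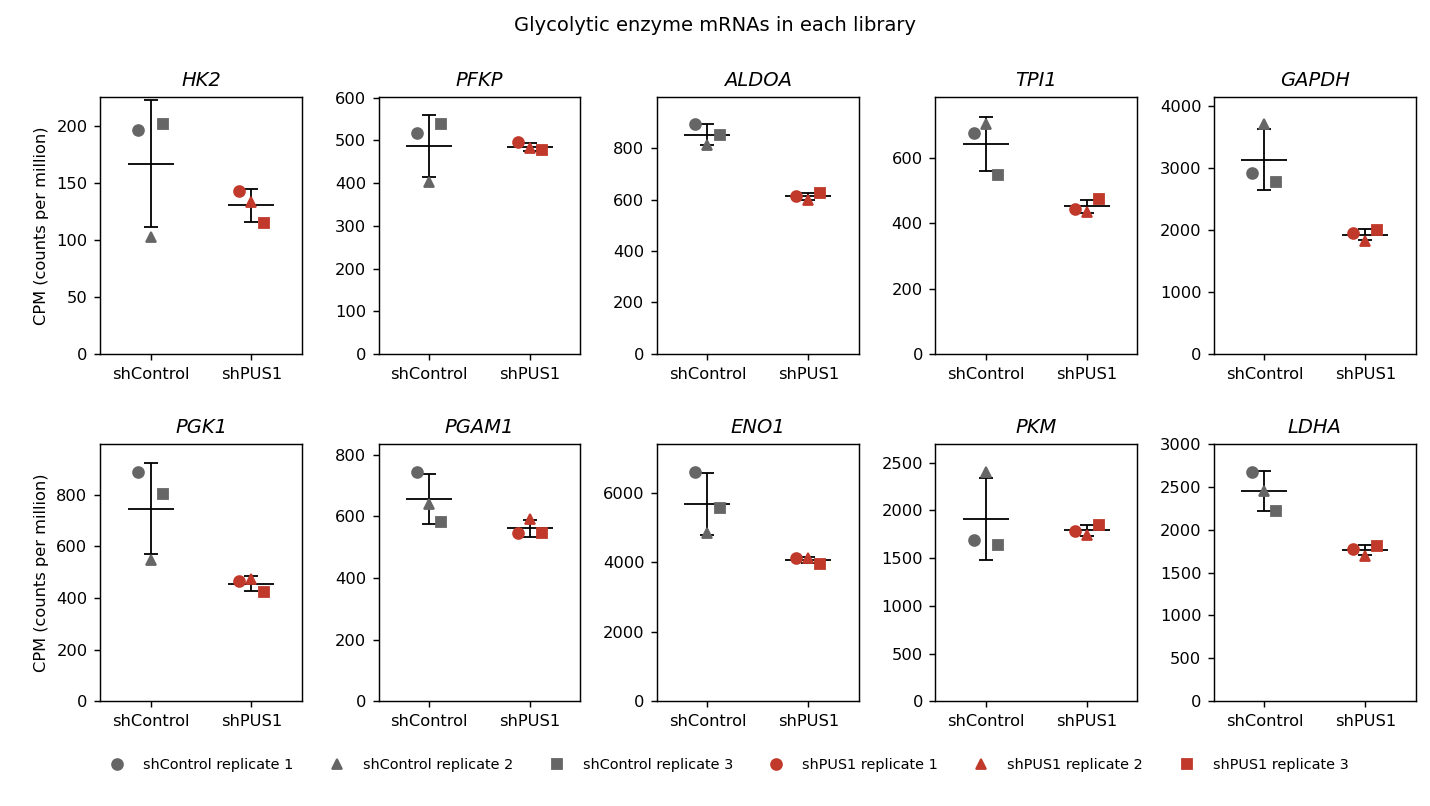
CPM (y axis, from 0) of each of the 10 enzymes in the 3 shControl (grey) and 3 shPUS1 (red) libraries, with symbols for replicates, a bar at the mean and an error bar of 1 SD. The shPUS1 points lie under all shControl points for ALDOA, TPI1, GAPDH, PGK1, ENO1 and LDHA, and replicate 2 of shControl (triangle) is lowest for HK2 and PFKP and highest for GAPDH and PKM.

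The plot of CPM by library shows all 10 enzymes, and their values follow in the order of the pathway. HK2 (ENSG00000159399, chromosome 2, 74834127 to 74893359, plus strand) encodes hexokinase 2, which phosphorylates glucose at the outer mitochondrial membrane. It had 197, 103 and 202 CPM in shControl replicates 1 to 3 and 143, 134 and 115 CPM in shPUS1 replicates 1 to 3. All 3 shPUS1 values lay between the low control and the other two controls. The log2 fold change was -0.35 (SE 0.25, edgeR adjusted p = 0.396). With shControl replicate 2 left out, it was -0.62 (SE 0.11, adjusted p = 0.0080), so that library decides this gene's call.

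PFKP (ENSG00000067057, chromosome 10, 3066333 to 3137718, plus strand) encodes the platelet form of phosphofructokinase, which commits the sugar to glycolysis. Its levels were 519, 403 and 538 CPM in shControl and 496, 482 and 477 CPM in shPUS1. The shPUS1 libraries were close together and fell inside the range of the controls. PFKP had the smallest log2 fold change in size of the 10 enzymes, -0.0044 (SE 0.14, edgeR adjusted p = 0.988). Leaving out shControl replicate 2 gave -0.13 (adjusted p = 0.297).

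ALDOA (ENSG00000149925, chromosome 16, 30064164 to 30070457, plus strand) encodes aldolase A, which cleaves fructose 1,6-bisphosphate. It had 892, 813 and 851 CPM in shControl and 615, 599 and 626 CPM in shPUS1. The groups were well apart, and the coefficient of variation was 4.67% in shControl, the lowest of the 10 enzymes there, and 2.23% in shPUS1. On the log2 scale ALDOA differed by -0.47 (SE 0.11, edgeR adjusted p = 0.0575), and by -0.51 with shControl replicate 2 left out (adjusted p = 0.0057).

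TPI1 (ENSG00000111669, chromosome 12, 6867119 to 6870948, plus strand) encodes triose phosphate isomerase, which interconverts both trioses. Its levels were 676, 702 and 547 CPM in shControl and 444, 434 and 475 CPM in shPUS1. The lowest control stood nearer to the highest shPUS1 library than to the other controls. Its log2 fold change of -0.51 (SE 0.13, edgeR adjusted p = 0.0746) became -0.45 with shControl replicate 2 left out (adjusted p = 0.0269).

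GAPDH (ENSG00000111640, chromosome 12, 6534512 to 6538374, plus strand) encodes glyceraldehyde-3-phosphate dehydrogenase, which oxidises the triose and reduces NAD+. It had 2915, 3698 and 2777 CPM in shControl (mean 3130.1 ± 497, SD, n = 3) and 1940.2, 1821 and 1992 CPM in shPUS1 (mean 1918 ± 87.6, SD, n = 3). Replicate 2 of shControl was the highest, and the lowest control was still well above every shPUS1 library. The fall amounted to a fold of 0.613 of the control level, and a fit that left out shControl replicate 2 gave -0.58 on the log2 scale (SE 0.08, edgeR adjusted p = 0.0040). The call was lost when any of shControl replicate 1 or shPUS1 replicates 1, 2 or 3 was left out, with adjusted p from 0.0905 to 0.255 and log2 fold changes from -0.76 to -0.67. None of the genes tested was called lower in those fits. The GAPDH call was also lost when the trend of fold change with gene length was removed (adjusted p = 0.0513), a fit in which 170 of all genes were called lower.

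PGK1 (ENSG00000102144, chromosome X, 77910739 to 78129295, plus strand) encodes phosphoglycerate kinase 1, which makes the first ATP of the payoff phase. Its levels were 889.5, 548 and 801 CPM in shControl and 467, 475 and 422 CPM in shPUS1. Replicate 2 of shControl lay nearer to the shPUS1 libraries than to the other controls, without reaching them. PGK1 differed by -0.71 on the log2 scale (SE 0.18, edgeR adjusted p = 0.0740), about that of GAPDH but with a larger error. With shControl replicate 2 left out it was -0.90 (SE 0.09, adjusted p = 0.0011), the largest fall of the 10 enzymes in that fit.

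PGAM1 (ENSG00000171314, chromosome 10, 97426191 to 97433444, plus strand) encodes phosphoglycerate mutase 1, which moves the phosphate on the triose acid. It had 746, 641 and 583 CPM in shControl and 546, 592 and 546 CPM in shPUS1. The lowest control lay under the highest shPUS1 library, so the groups overlapped. The log2 fold change was -0.23 (SE 0.13, edgeR adjusted p = 0.30), and leaving out shControl replicate 2 gave -0.25 (adjusted p = 0.164).

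ENO1 (ENSG00000074800, chromosome 1, 8861000 to 8879190, minus strand) encodes enolase 1, which forms phosphoenolpyruvate. Its levels were 6611, 4837 and 5558 CPM in shControl and 4127, 4119 and 3962 CPM in shPUS1, the highest CPM of the 10 enzymes. The controls spread widely and the shPUS1 libraries did not, with SDs of 892 and 93.1 CPM. ENO1 differed by -0.48 on the log2 scale (SE 0.14, edgeR adjusted p = 0.0910), and by -0.59 once shControl replicate 2 was left out (adjusted p = 0.0052).

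PKM (ENSG00000067225, chromosome 15, 72199029 to 72231822, minus strand) encodes the muscle forms of pyruvate kinase, which makes pyruvate and ATP. It had 1693, 2408 and 1639 CPM in shControl and 1783, 1741 and 1849 CPM in shPUS1. The shPUS1 libraries lay above both other controls and under replicate 2. The log2 fold change was -0.10 (SE 0.16, edgeR adjusted p = 0.739), and it turned to 0.10 once shControl replicate 2 was left out (adjusted p = 0.419). The deposited values are per gene, so the spliced forms PKM1 and PKM2 were not told apart.

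LDHA (ENSG00000134333, chromosome 11, 18394560 to 18408425, plus strand) encodes the A chain of lactate dehydrogenase, which reduces pyruvate to lactate. Its levels were 2679, 2453 and 2213 CPM in shControl and 1775, 1694 and 1813 CPM in shPUS1. Every control lay above every shPUS1 library. Its log2 fold change was -0.48 both in all 6 libraries (SE 0.12, edgeR adjusted p = 0.0663) and with shControl replicate 2 left out (SE 0.10, adjusted p = 0.0144).

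**Figure D2:**
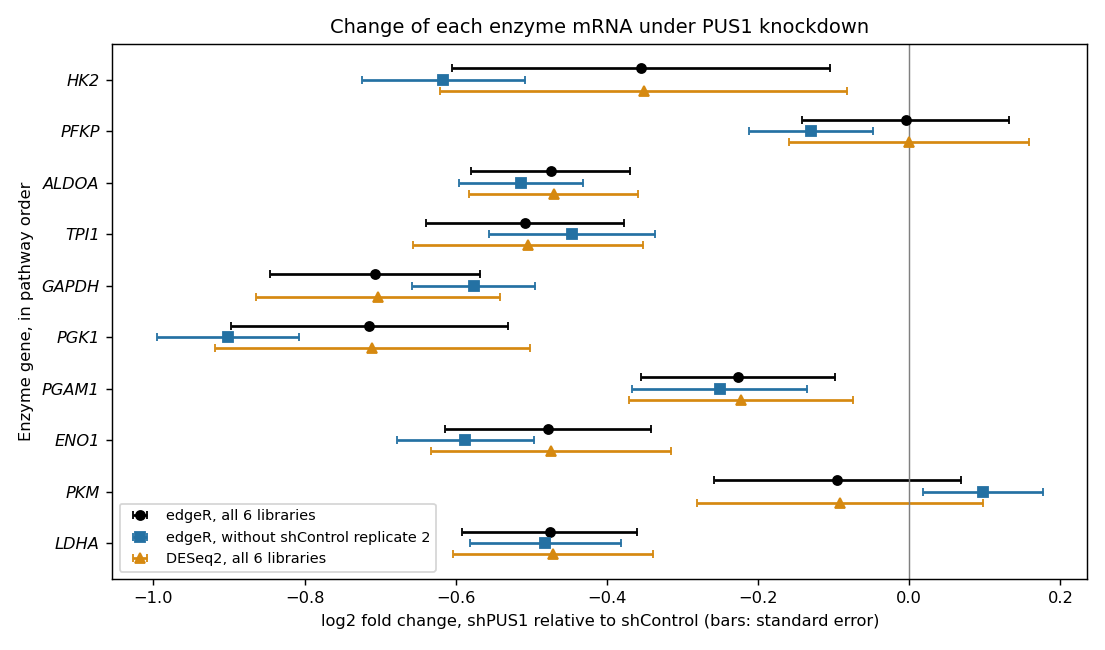
Log2 fold change of each enzyme mRNA in shPUS1 relative to shControl (x axis), with bars of 1 standard error, from edgeR on all 6 libraries, edgeR without shControl replicate 2 and DESeq2 on all 6 libraries. All 3 fits place ALDOA, TPI1, GAPDH, PGK1, ENO1 and LDHA to the left of 0, and leaving out the library moves HK2 and PGK1 to lower values and PKM across 0.

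Counted over the 10 enzymes, 1 was lower by the edgeR test with an adjusted p under 0.05, where 0.841% of the genes tested were, and 0 were higher, where 1.74% were. The count of 0 higher enzymes was the same at an unadjusted p under 0.05 (12.6% of genes) and by DESeq2 (7.12% of genes). At an unadjusted p under 0.05, 6 enzymes were lower, against 12.8% of genes. The groups did not overlap, with shPUS1 lower, in 6 enzymes against 17.3% of genes, and with shPUS1 higher in 0 enzymes against 18.8%. For a single gene the exact two-sided permutation test of 3 against 3 libraries cannot go under p = 0.1, which these 6 enzymes reached.

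The number of enzymes called changed with every library left out and with the tool. It was 0 without shControl replicate 1 or any 1 shPUS1 library, and in each of those fits 0 of all genes tested were called lower. Without shControl replicate 3 it was 2 (TPI1 and GAPDH), beside 158 of all genes. Without shControl replicate 2, edgeR called 7 enzymes lower, against 8.79% of genes: HK2, ALDOA, TPI1, GAPDH, PGK1, ENO1 and LDHA. DESeq2 on all 6 libraries called 6 lower, against 5.56% of genes, with ALDOA, TPI1, GAPDH, PGK1, ENO1 and LDHA at adjusted p between 0.0006 and 0.0278. The plot of fold changes shows that DESeq2 and edgeR differ little in size for each enzyme. No enzyme reached a log2 fold change of 1 in size in any of these fits.

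The median log2 fold change of the 10 enzymes was -0.47, beside -0.03 over all genes tested. Among the 1843 tested genes with a mean FPKM at least that of HK2, the lowest enzyme, the median was -0.08, 19.97% did not overlap and were lower, and 0.977% were called lower. These counts describe the enzymes, which share a pathway and were measured in the same libraries, and carry no test of their own.

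**Figure D3:**
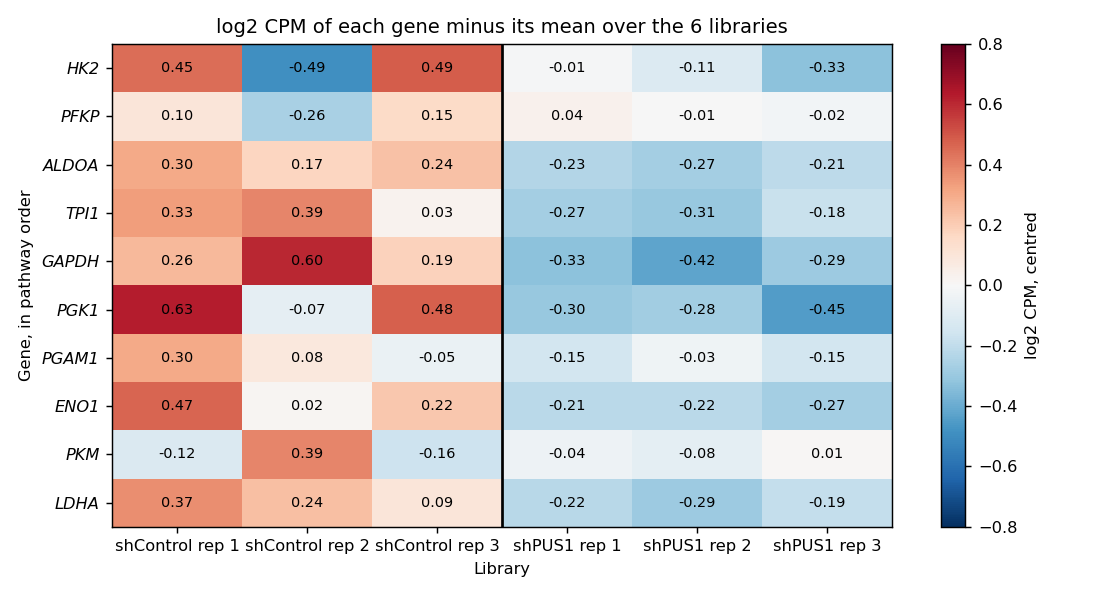
Log2 CPM of each enzyme minus its mean over the 6 libraries, with libraries as columns, enzymes in pathway order as rows, and red for above and blue for below the mean. Replicate 2 of shControl is at -0.49 for HK2, -0.26 for PFKP, -0.07 for PGK1 and 0.39 for PKM, on the other side of 0 from the other controls. The shPUS1 columns are below 0 for every enzyme but PFKP in replicate 1 and PKM in replicate 3.

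The map of centred levels shows how the enzymes differed among the controls. Relative to the mean of replicates 1 and 3, shControl replicate 2 was lower by a log2 difference of -0.95 for HK2, -0.62 for PGK1, -0.39 for PFKP and -0.33 for ENO1. It was higher by 0.53 for PKM, 0.38 for GAPDH and 0.21 for TPI1. ALDOA, PGAM1 and LDHA differed from that mean by about 0.10 or less. PGK1 and GAPDH thus had their largest within-group departures in opposite directions, although both were lower in every shPUS1 library than in every control. Over the 6 libraries, Pearson's r with the mean centred profile of all 10 enzymes was 0.985 for ALDOA, 0.975 for ENO1, 0.960 for LDHA, 0.939 for PGK1, 0.870 for TPI1, 0.830 for GAPDH and 0.821 for PGAM1. It was 0.582 for HK2, 0.169 for PFKP and -0.0037 for PKM. These r describe 3 and 3 libraries of groups that differ, and each enzyme is part of the mean.

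Per exonic length (FPKM), GAPDH was the most abundant of the 10 enzymes in shControl, at 1311 ± 165 (SD, n = 3), followed by ENO1 at 1097 ± 195. Their ranges over the control libraries overlapped, and they ranked 19 and 21 among the genes tested by mean FPKM over all libraries. LDHA came next at 408 ± 38.8 and did not overlap either neighbour. PGAM1 (260 ± 33.8), TPI1 (239 ± 26.1), ALDOA (224 ± 16.1) and PKM (224 ± 42.7) formed a group whose neighbouring ranges overlapped. PGK1 (139 ± 36.1), PFKP (63.6 ± 11.3) and HK2 (28.6 ± 10.2) stood apart below them, the last at rank 1843. The members for the hexokinase and phosphofructokinase steps, which spend ATP, were thus the lowest, and GAPDH and ENO1 of the payoff phase the highest. That is an order of member genes and not of steps, since HK1, not a member, had 75.6 FPKM in shControl. The order by FPKM depends on the deposited exonic lengths, such as 8571 bases for PKM and 2396 for GAPDH. By mean shControl CPM, HK2 and PFKP were again the lowest and ENO1 and GAPDH the highest. PKM, at 1913 CPM, lay above ALDOA, at 852 CPM.

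In shPUS1 the same scale gave 793 ± 33.2 FPKM for GAPDH, 773 ± 18.4 for ENO1 and 289 ± 8.90 for LDHA. GAPDH and ENO1 again overlapped. PGAM1 stood at 219 ± 11.5, PKM at 207 ± 5.84, TPI1 at 165 ± 7.49 and ALDOA at 159 ± 3.02. PKM, whose control levels overlapped those of ALDOA and TPI1, was above TPI1 and ALDOA in all shPUS1 libraries. PGK1 was at 82.9 ± 5.30, PFKP at 62.2 ± 1.07 and HK2 at 21.9 ± 2.37. The spread of each enzyme was smaller in shPUS1 than in shControl.

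Together the enzymes held 1.81, 1.61 and 1.62% of all counts in shControl replicates 1 to 3 and 1.22, 1.21 and 1.22% in shPUS1 replicates 1 to 3. The groups did not overlap, with means of 1.68% ± 0.114 and 1.21% ± 0.0062 (SD, n = 3). Without GAPDH the shares were 1.52, 1.25 and 1.33% in shControl and 1.02, 1.02 and 1.02% in shPUS1. GAPDH and ENO1 were both among the 10 genes with most counts in every shControl library, and ENO1 alone of the enzymes was among them in every shPUS1 library.

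Of the ratios taken to PKM, only that of GAPDH did not overlap between the groups. The ratio of GAPDH to PKM in FPKM was 6.16, 5.50 and 6.06 in shControl and 3.89, 3.74 and 3.85 in shPUS1. These values did not overlap, and the exact two-sided permutation p was 0.1, the smallest possible. The ratio of ENO1 to PKM was 6.42, 3.30 and 5.57 in shControl and 3.80, 3.89 and 3.52 in shPUS1. Only shControl replicate 2 lay within or under the shPUS1 values, and the ratio of PGK1 to PKM, 0.652 ± 0.256 against 0.401 ± 0.0365 (SD, n = 3), overlapped in the same library.

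**Figure D4:**
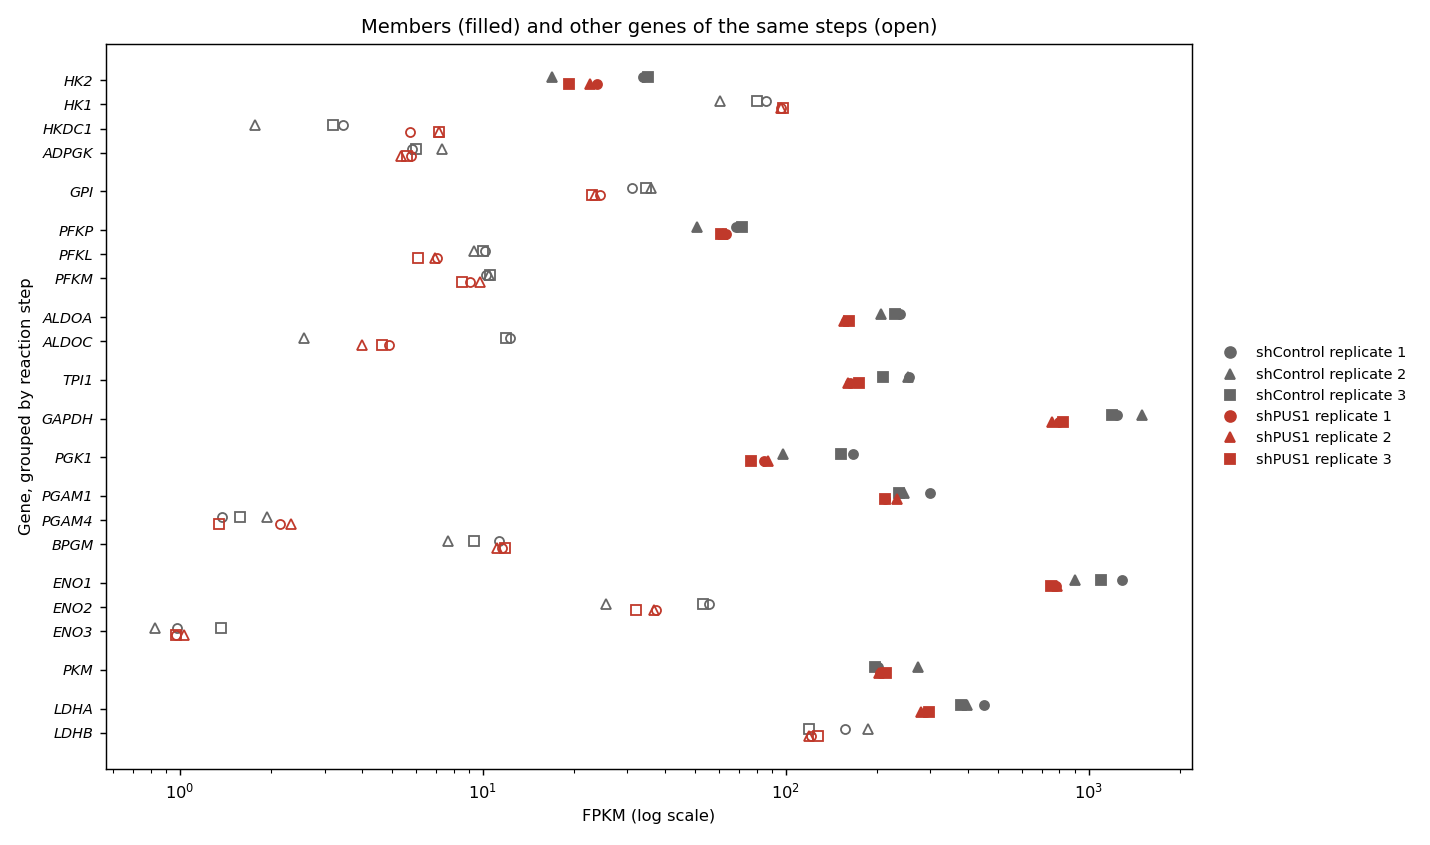
FPKM (x axis, log scale) of the members (filled) and of the other tested genes for the same reaction steps (open), in each shControl (grey) and shPUS1 (red) library. HK1 lies above HK2 in every library, the other members lie above the other genes of their step, and HKDC1 is higher in every shPUS1 library than in every control.

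Most steps were served by the member gene. Of the FPKM summed over the genes for a step, GAPDH, PGK1 and TPI1 held 100%, with GAPDHS and PGK2, the sperm forms, listed at 0, and PKM held at least 99.99% of its step on average in both groups. ALDOA held 96.3% ± 2.15 in shControl and 97.2% ± 0.241 in shPUS1, ENO1 96.1% ± 0.983 and 95.5% ± 0.256, and PGAM1 95.9% ± 0.324 and 94.1% ± 0.268 (SD, n = 3 each). PGAM1's share did not overlap between the groups, its highest value in shPUS1 being 94.4% and its lowest in shControl 95.6%.

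Hexokinase was the exception. HK1, the widely expressed form, had a mean of 86.2 FPKM over the 6 libraries, and HK2 held 26.2, 19.5 and 28.2% of the step in shControl and 18.1, 17.1 and 14.8% in shPUS1. The lowest control share lay just above the highest shPUS1 share. HK1 had 532, 392.2 and 489.7 CPM in shControl and 614, 609 and 624 CPM in shPUS1, with a log2 fold change of 0.39 (SE 0.14, edgeR adjusted p = 0.138), or 0.26 with shControl replicate 2 left out (adjusted p = 0.0672). HKDC1, a hexokinase-like gene, rose with a log2 fold change of 1.28 (SE 0.25, edgeR adjusted p = 0.0454). It had 14.3, 7.71 and 13.1 CPM in shControl and 24.5, 30.3 and 30.6 CPM in shPUS1, so its level stayed far under those of HK1 and HK2. Leaving out shControl replicate 2 gave 1.04 (adjusted p = 0.0028), but leaving out any other single library ended the call, with log2 fold changes of 1.23 to 1.45 and adjusted p from 0.0571 to 0.244. Over all genes, 11 and 316 were called higher without shControl replicates 1 and 3, and 11, 6 and 0 without shPUS1 replicates 1, 2 and 3. The HKDC1 call was also lost with library totals (adjusted p = 0.0531) and with upper-quartile factors (adjusted p = 0.0541). The same held with a block for the replicate number (adjusted p = 0.0984) and with limma on log2(FPKM + 0.1) (adjusted p = 0.0522).

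At the phosphofructokinase step PFKP held 75.6% ± 3.17 in shControl and 79.7% ± 0.937 in shPUS1 (SD, n = 3), and the groups did not overlap. The muscle gene PFKM, next to it in level at 9.77 FPKM on average, had a log2 fold change of -0.17 (SE 0.11, edgeR adjusted p = 0.378), or -0.15 with shControl replicate 2 left out (adjusted p = 0.311). PFKL, the other gene of this step, named here outside the naming rule, had 8.3 FPKM on average and was lower without overlap between the groups. Its log2 fold change was -0.53 (SE 0.12, edgeR adjusted p = 0.0560). It was called with shControl replicate 2 left out (-0.55, adjusted p = 0.0091) and by DESeq2 (adjusted p = 0.0023). LDHA held 72.7% ± 4.30 and 70.1% ± 0.253 of the lactate dehydrogenase step, with overlap. Such shares depend on the deposited exonic lengths, 6038 bases for LDHA and 2983 for LDHB. In mean shControl CPM, LDHA stood at 2449 and LDHB at 460. LDHB, the heart chain, had 459, 575 and 345 CPM in shControl and 367, 357 and 385 CPM in shPUS1, and a log2 fold change of -0.31 (SE 0.18, adjusted p = 0.312), or -0.13 with that control left out (adjusted p = 0.504). The plot of members and the other genes of their steps shows these levels side by side.

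The minor genes of the other steps did not pass the edgeR test. ALDOC, the brain aldolase, had 31.5, 6.87 and 30.2 CPM in shControl and 12.97, 10.5 and 12.3 CPM in shPUS1. Its log2 fold change was -0.94 (SE 0.49, adjusted p = 0.267), and leaving out shControl replicate 2 gave -1.38 (adjusted p = 0.0006), so the same library decides it. ENO2, the neuronal enolase, behaved alike, with a log2 fold change of -0.31 (adjusted p = 0.473) and -0.59 without that library (adjusted p = 0.0070). BPGM, which makes 2,3-bisphosphoglycerate, had a log2 fold change of 0.32 (SE 0.16, adjusted p = 0.260), or 0.20 without it (adjusted p = 0.270). GPI, the isomerase between hexokinase and phosphofructokinase, had 325, 394 and 358 CPM in shControl and 263, 250.4 and 248 CPM in shPUS1. Its groups did not overlap, with a log2 fold change of -0.50 (SE 0.12, adjusted p = 0.0623). It was called with shControl replicate 2 left out (-0.43, adjusted p = 0.0141) and by DESeq2 (adjusted p = 0.0048).

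The wider pathway list held 86 genes, of which 65 were tested, and edgeR called 1 higher and 1 lower, beside 1.74% and 0.841% of all genes, which is near the share in the list. HKDC1 was the higher one, among 12 tested genes for the members' steps and the GPI step. The lower one was SLC16A3 among 13 tested transporters of glucose, lactate and pyruvate. SLC16A3 encodes MCT4, a lactate exporter, and had 275, 344 and 309 CPM in shControl and 189, 187 and 151 CPM in shPUS1. Its log2 fold change was -0.82 (SE 0.14, edgeR adjusted p = 0.0395), and leaving out shControl replicate 2 gave -0.74 (adjusted p = 0.0056). Leaving out shControl replicate 1 or any 1 shPUS1 library ended the call, with log2 fold changes of -0.90 to -0.72 and adjusted p from 0.0855 to 0.222. None of the genes tested was called lower in those fits. SLC2A1, the glucose importer GLUT1, had 219.6, 203 and 263 CPM in shControl and 189, 194 and 162 CPM in shPUS1. The groups did not overlap, and the log2 fold change was -0.33 (SE 0.14, adjusted p = 0.195), which became a call at -0.42 with shControl replicate 2 left out (adjusted p = 0.0392).

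The remaining lists gave no edgeR call in either direction. Their counts stand beside 12.8% of all genes lower and 12.6% higher at an unadjusted p under 0.05, and 5.56% and 7.12% by DESeq2. Of 10 tested regulators of phosphofructokinase and pyruvate dehydrogenase, 2 were lower and 1 was higher at an unadjusted p under 0.05, and DESeq2 called 1 and 1. Of 4 tested gluconeogenic genes, 1 was lower and 1 higher at that p, and of 7 tested pentose phosphate genes 1 was lower, with 0 calls by DESeq2 in both lists. Of 13 tested genes of side branches (serine, glycogen, glycerol and hexosamine synthesis), 1 was lower and 2 were higher, and DESeq2 called 1 and 2. Of 6 tested transcription factors, 1 was higher by both measures. That gene was HIF1A, the oxygen-regulated subunit of HIF-1, whose mRNA had 609, 322 and 671 CPM in shControl and 901, 899 and 898 CPM in shPUS1. Its groups did not overlap, with shPUS1 higher, and its log2 fold change was 0.75 (SE 0.25, edgeR adjusted p = 0.121), or 0.48 with shControl replicate 2 left out (adjusted p = 0.0083).

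**Figure D5:**
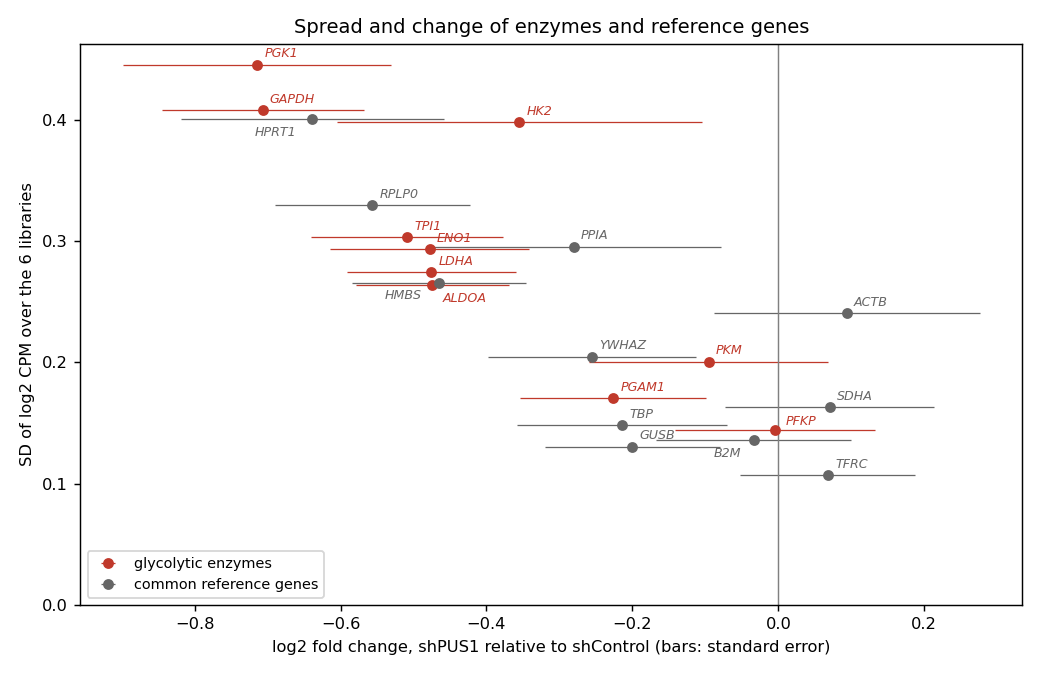
SD of log2 CPM over the 6 libraries (y axis, from 0) against log2 fold change in shPUS1 relative to shControl (x axis, bars of 1 standard error) for the 10 enzymes (red) and 11 of the 12 common reference genes (grey). GAPDH lies at an SD of 0.41 and a fold change of -0.71, while PFKP lies among the reference genes with the smallest SD.

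GAPDH is also a common reference gene for normalising other measurements. Its SD of log2 CPM over the 6 libraries was 0.41, and 35.4% of the genes tested had a larger one. Among 12 other common reference genes, TFRC, the transferrin receptor, had the smallest SD (0.11). None of the 12 was called by edgeR, 3 were lower at an unadjusted p under 0.05 (12.8% of all genes), and DESeq2 called 3 lower (5.56%). Of the 12, 6 were lower without overlap between the groups, the same number as among the 10 enzymes, beside 17.3% of all genes. TFRC had a log2 fold change of 0.07 (SE 0.12, edgeR adjusted p = 0.748), or 0.09 without shControl replicate 2 (adjusted p = 0.581). The ratio of GAPDH to ACTB, the beta-actin gene, in FPKM was 1.78, 1.502 and 1.71 in shControl and 0.938, 0.986 and 0.909 in shPUS1. GAPDH was thus above ACTB in every control and under it in every shPUS1 library, with ACTB named here outside the naming rule. The plot of spread against change places PFKP, PGAM1 and PKM beside the steadier reference genes and HK2, PGK1 and GAPDH beside the more variable ones.

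Among 9742 other genes with a mean of at least 10 CPM, the profiles most like the mean centred profile of the enzymes over the 6 libraries were those of TNFRSF1A, FAM72B, APLN, MIEF2 and LIPA, with Pearson's r of 0.996, 0.995, 0.995, 0.992 and 0.992. TNFRSF1A encodes a tumour necrosis factor receptor, APLN the peptide apelin, MIEF2 a mitochondrial fission adaptor and LIPA lysosomal acid lipase. APLN fell by 1.41 on the log2 scale (SE 0.23, edgeR adjusted p = 0.0341), and FAM72B by 0.91 (SE 0.18, adjusted p = 0.0462), although FAM72B has near-identical copies that could share its reads. The log2 differences of TNFRSF1A (-0.52, adjusted p = 0.0572), LIPA (-0.49, adjusted p = 0.0688) and MIEF2 (-0.28, adjusted p = 0.280) did not pass the test. With shControl replicate 2 left out, the values were -1.59 for APLN, -1.02 for FAM72B, -0.58 for TNFRSF1A, -0.55 for LIPA and -0.32 for MIEF2, the last with an adjusted p of 0.0943 and the others called. The calls of APLN and FAM72B were lost without shControl replicate 1 or any 1 shPUS1 library, fits in which none of the genes tested was called lower. That of FAM72B was also lost without shControl replicate 3. These genes were chosen for their likeness, and the r carries no test.

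Reads that could belong to another gene bear most on ALDOA and PGAM1. Of ALDOA's 100-base stretches in GENCODE 29 transcripts, 33.5% were shared with ENSG00000285043, a gene on the same strand that overlaps it and held 397 to 964 counts. With both summed, the log2 fold change was -0.49 (SE 0.10, edgeR adjusted p = 0.0526). For PGAM1, 27.0% of stretches were shared with other genes, most with ENSG00000186076, and the sum of both genes had a log2 fold change of -0.24 (SE 0.13, adjusted p = 0.278). TPI1 shared 3.88% of its stretches, HK2 2.60%, PFKP 0.452% and LDHA 0.171%, and GAPDH, PGK1, ENO1 and PKM shared 0. The named pseudogenes held 1.24 to 1.63% of the TPI1 counts and less than 0.5% of those of each other enzyme, although GAPDH has 65 in the table. PGK1's interval spans ATP7A, which had 161 to 424 counts, and PGAM4 on the other strand. TPI1 overlaps SPSB2 on the other strand, with 37.0 to 114 counts, and the strandedness of the counts is not given in the sources used here. Gene intervals of ALDOA, TPI1 and PKM equal those of GENCODE 29 on GRCh38, and the other 7 lie on the same chromosomes with another start or end.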

How the data were processed

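Poly(A) RNA libraries of MDA-MB-231 cells, 3 shControl and 3 shPUS1, were analysed from 1 deposited table. The submitters' processing notes name HISAT2 for alignment and HTSeq 0.6.1 for counting. Genome build, annotation, strandedness and the handling of multi-mapped reads are not given in the sources used here. The authors deposited estimated counts per gene without normalization, 29.8 to 31.8% of them not whole, and FPKM made from these counts, the library totals and the deposited exonic length of each gene. No column of other samples was present and no library was pooled.

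After rounding, genes kept by filterByExpr were normalised with TMM factors, and edgeR 4.0.16 (R 4.3.3) gave a quasi-likelihood test for 14748 genes, with Benjamini-Hochberg adjustment and a threshold of 0.05. The study's methods name DESeq2, which was run as an alternative (1.42.0) beside limma 3.58.1 with and without voom. CPM are counts scaled to the TMM-adjusted library size, log2 CPM used a prior count of 2, and tables and figures were made in Python 3.11.15. The fit was tested on simulated data, with an outcome that is not reported here. Totals lay between 14241505 and 19625998 counts, and the lowest count of an enzyme in a library was 1948. Gene names are the deposited ones. Stretches of 100 bases shared between genes came from GENCODE 29 transcripts, and promoters from RefSeq on GRCh38.p14, where all 10 members matched.

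The members and lists were chosen with earlier results of these data known, and the lists were written from general knowledge. The naming rule took all members, PUS1, genes of the wider list with an adjusted p under 0.05, the most abundant other gene of each member's step, GPI, SLC2A1, SLC16A3 and HIF1A, the reference genes with the smallest and largest SD (the latter is not reported here), and the 5 genes with profiles most like the members' mean. Summing ALDOA and PGAM1 with the genes sharing most stretches was chosen after seeing the data. Residuals of libraries with the same replicate number had correlations of -0.05, -0.03 and -0.19 across genes, which gave no sign of pairing. With 3 libraries per group, these values cannot show whether libraries sharing a number were handled together, and the labels do not say.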

Additional observations from a re-analysis of the deposited data

How the results depend on the processing

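The settings tried were 20, and in all of them ALDOA, TPI1, GAPDH, PGK1, ENO1, LDHA, HK2 and PGAM1 kept a negative log2 fold change. The number of enzymes called lower, 1 with edgeR, was 2 with no filter on low counts (GAPDH and PGK1), 6 with DESeq2, 7 with voom and sample weights, and 0 with the gene length trend removed or with the replicate block, and 0 to 7 when 1 library was left out. The highest of these values came without shControl replicate 2, and 0 came without shControl replicate 1 or any 1 shPUS1 library. In the wider list the calls lower, 1 in the edgeR test, were 3 with upper-quartile factors or no filter, 5 with DESeq2, 12 with voom, 0 with the replicate block, 4 with the length trend removed, 2 with limma on log2(FPKM + 1) or log2(FPKM + 5), and 0 to 13 with 1 library left out. The calls higher in that list, 1 in the edgeR test, were 0 with library totals or upper-quartile factors, 3 with no filter, 5 with DESeq2, 7 with voom, 0 with the replicate block, 0 with limma on log2(FPKM + 0.1), and 0 to 8 with 1 library left out. Over all genes, 124 were lower and 256 higher. The lower calls were 528 with no filter, 820 with DESeq2, 1398 with voom, and 0 to 1330 with 1 library left out. They were 170 with the gene length trend removed and 0 with the replicate block. The higher calls were 164 with library totals, 165 with upper-quartile factors, 756 with no filter, 1050 with DESeq2, 1692 with voom, 18 with the replicate block, 134 with limma on log2(FPKM + 0.1), and 0 to 1483 with 1 library left out.

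The enzymes whose groups did not overlap, with shPUS1 higher, were 0, beside 18.8% of all genes, and 0 to 1 with 1 library left out, the 1 being PKM without shControl replicate 2. With fewer controls such a separation is easier to reach, and the share over all genes is not given for that setting. PFKP, between -0.13 and 0.064 with 1 library left out, turned to a positive log2 fold change of 0.0066 with the replicate block, 0.042 and 0.064 without shControl replicates 1 and 3, and 0.0023 and 0.0078 without shPUS1 replicates 2 and 3. PKM, between -0.20 and 0.097 with 1 library left out, turned to 0.066 with voom and 0.097 without shControl replicate 2. With the replicate block GAPDH was lower by -0.70 on the log2 scale (adjusted p = 0.143), and whether the replicate numbers pair the libraries is not known. The cause of these shifts was not tested. Each enzyme had at least 1948 counts in each library, and whether depth or the spread between libraries limits these comparisons was not tested.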

Other observations

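Other genes of sugar metabolism stood out by value, and were picked after their values were seen. PDK1, a kinase that switches off pyruvate dehydrogenase, had a log2 fold change of -0.87 (SE 0.20, edgeR adjusted p = 0.0590), with every shPUS1 library under every control, and leaving out shControl replicate 2 gave -1.06 (adjusted p = 0.0011). GBE1, the glycogen branching enzyme, had -0.56 (SE 0.15, adjusted p = 0.0812) and -0.69 without that library (adjusted p = 0.0039), also without overlap. PFKFB4, which sets the level of fructose 2,6-bisphosphate, overlapped between the groups at -0.73 (SE 0.33, adjusted p = 0.212), and had -1.07 without that library (adjusted p = 0.0005).

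In the opposite direction, GFPT1, which starts hexosamine synthesis, had a log2 fold change of 0.93 (SE 0.34, edgeR adjusted p = 0.147), which became 0.58 with shControl replicate 2 left out (adjusted p = 0.0049). PFKFB2 had 0.56 (SE 0.17, adjusted p = 0.0978), and 0.46 without that library (adjusted p = 0.0365). PYGB, brain glycogen phosphorylase, had 0.35 (SE 0.11, adjusted p = 0.110), and 0.40 without it (adjusted p = 0.0160). None of these genes passed the edgeR test with all 6 libraries.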
